A study of Culex pipiens pallens and Culex quinquefasciatus with 12 samples.

Results

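The 12 libraries of the series were ranked by how strongly they expressed cuticle genes, and the pools at both ends of that ranking were compared across the remaining genes. Each library was made from whole larvae of the house mosquito, 30 larvae per pool, with 7 pools of *Culex pipiens pallens* and 5 of *Culex pipiens quinquefasciatus*. A cuticle score, the mean log2(CPM + 1) over 78 genes, was above 5 in 4 libraries (quinquefasciatus 2 and pallens 2, 3 and 5) and below 4 in 5 libraries (quinquefasciatus 3, 4 and 5 and pallens 1 and 4). CPM scale each library's reads to a common total. The score of quinquefasciatus 1 and of pallens 6 and 7 lay between these limits, and these 3 libraries were left out of the test. The score genes were those with at least 10 reads in at least 5 libraries whose deposited description names a cuticle or cuticular protein, resilin or a chitin-binding protein; 78 of the 147 gene models so described passed, among 17757 models in all. Every pool carries only its subspecies as a label. The labels give no strain, treatment, age or larval stage, and do not say whether pools of 1 subspecies came from separate cultures, so that the spread behind each p-value is that between these libraries, which may be technical. The high and low classes were made from measured values and are not groups of the study.

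A mosquito larva sheds its cuticle several times and makes a new one beneath the old before each moult. Pulses of the steroid 20-hydroxyecdysone start the process, and juvenile hormone sets whether the next stage is a larva or a pupa. Epidermal cells then secrete chitin and cuticle proteins, coat the surface with lipids made from long-chain fatty acids, and harden and colour the new layer with compounds derived from tyrosine.

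In units of 1000000 unique reads, the 4 high libraries held 3.88 to 4.41 and the 5 low libraries 4.50 to 5.18, so that every high library was shallower than every low one. The part of depth in the results was not tested. Each library was also compared at genes that separate the subspecies, called without that library and always without pallens 1 and quinquefasciatus 5. Both of these thus never helped to choose genes or to set the subspecies means. Their shares are therefore not on equal terms with those of the other libraries. Pallens 1 lay nearer its own subspecies at 55.2% of 366 genes, quinquefasciatus 5 at 45.4% of 366 and pallens 4 at 59.6% of 505, against 75.2% to 94.3% in the other 9 libraries. Counts over gene lists are therefore also given without pallens 1 and quinquefasciatus 5, both of the low class, and calls that end without them are marked.

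The cuticle score did not divide by subspecies. It was 5.22 in quinquefasciatus 2, 6.22 in pallens 2, 5.13 in pallens 3 and 5.97 in pallens 5. The low libraries had 3.52 in quinquefasciatus 3, 2.68 in quinquefasciatus 4, 3.0 in pallens 1, 3.57 in pallens 4 and 2.60 in quinquefasciatus 5. Nearest to the limits were pallens 3 and pallens 4 within the classes, and pallens 7 (4.27), quinquefasciatus 1 (4.19) and pallens 6 (4.04) outside them. The score genes took 1.85% to 3.93% of the reads in the high libraries and 0.174% to 0.317% in the low libraries. For this summed share, fewer cells making cuticle and less RNA per cell cannot be told apart in whole larvae. Not every score gene followed the sum, and whether the classes use different cuticle genes was not tested.

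**Figure D1:**
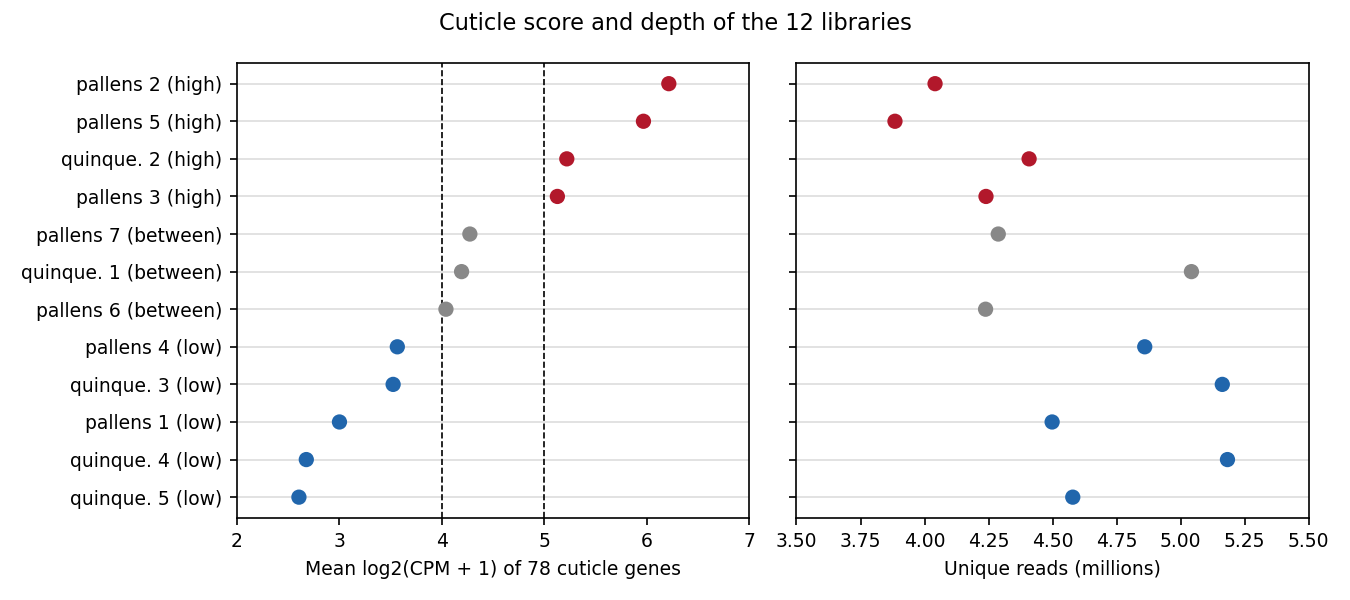
Cuticle score (left, mean log2(CPM + 1) of 78 genes, dashed lines at 4 and 5) and unique reads (right) of each of the 12 libraries, 1 point per library, coloured by class. The 4 high libraries score 5.13 to 6.22 and all hold fewer reads than the 5 low libraries.

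The score genes are described without a test, since they chose the libraries. In 39 of the 78 all 4 high libraries lay above all 5 low libraries, in 8 all lay below, and the mean was higher in the high class for 60 and lower for 18. A pupal cuticle protein 78E (CPIJ012466) had the most reads. Its TMM-normalized CPM, the scale of all CPM values from here on, were 4166, 3627, 8746 and 3294 in the high libraries, in the order quinquefasciatus 2, pallens 2, pallens 3 and pallens 5. In the low libraries, in the order quinquefasciatus 3, quinquefasciatus 4, pallens 1, pallens 4 and quinquefasciatus 5, they were 97.9, 119, 182, 157 and 184. Pallens 3, the high library with the lowest score, thus had the most of this transcript. The order of the high libraries was another one for the cuticle protein gene CPIJ001840, with 3277, 5217, 2533 and 4810 CPM against 60.3, 13.2, 28.5, 114 and 40.01. A gene described as a pupal cuticle protein, CPIJ001078, went the other way in part, with 549, 47.4, 528 and 268 CPM in the high and 598, 491, 804, 725 and 417 in the low libraries, and its classes overlapped. Endocuticle structural glycoprotein SgAbd-2 (CPIJ016319), picked after its values were seen, was among the 8 with all high libraries below. Its mean was 95.8 CPM in the high and 593.7 CPM in the low class.

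Outside the score, 267 of 10471 genes tested (2.55%) differed between high and low libraries at an adjusted p under 0.05 in edgeR's quasi-likelihood test with subspecies as covariate. Of these, 199 (1.9% of all tested) were higher in the high libraries and 68 (0.649%) were lower. The higher genes had the larger differences, with a median log2 change of 2.73 against -1.65 for the lower ones; 129 of the 199 were at least 4-fold higher and 19 of the 68 at least 4-fold lower. Over the whole table the log2 change had a median of 0.02. High and low libraries did not overlap in 192 of the 199 and 59 of the 68 genes, against 5.02% of all tested genes with every high library above and 3.12% with every high library below (8.15% either way). The calls were made on the same libraries and largely set this separation, here and in the single genes below. An informative description was missing for 110 of the 199 higher and 25 of the 68 lower genes.

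The count of called genes depended on single libraries. It was 78 without quinquefasciatus 2, the high class's single quinquefasciatus pool, 116 without pallens 1, 159 without quinquefasciatus 4, 159 without pallens 2 and 689 without quinquefasciatus 3. Without pallens 1 and quinquefasciatus 5 together it was 91, of which 88 were among the 267. Of the 199 higher genes, 58 stayed called whichever library was left out, and of the 68 lower genes 2 did. Called genes below are therefore named with the libraries whose removal ended the call. Where none is named, the call held without any 1 library and without pallens 1 and quinquefasciatus 5 together.

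**Figure D2:**
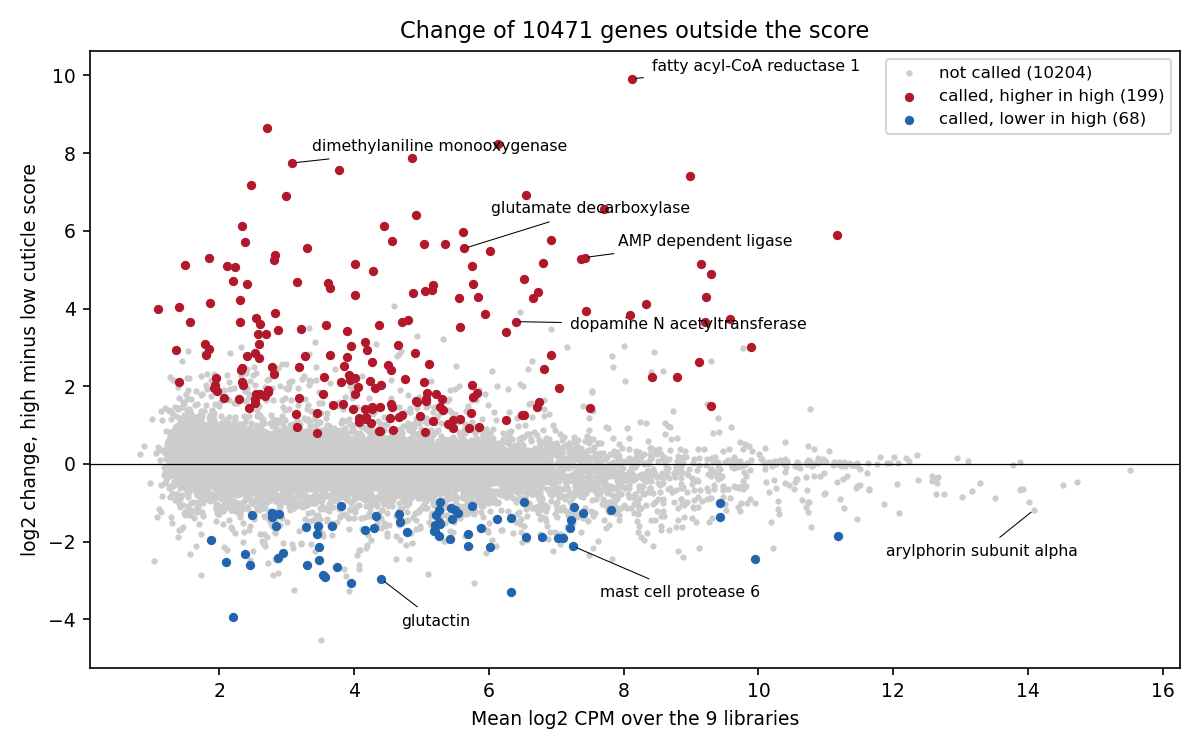
Log2 change, high minus low, against mean log2 CPM over the 9 libraries for the 10471 genes tested, with the 199 called higher genes in red, the 68 called lower genes in blue and the rest in grey. Differences above 0 reach a log2 change of 9.91 at fatty acyl-CoA reductase 1, whereas described genes called below 0 end at -2.96 at glutactin.

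Enzymes that make very long chain lipids were among the higher genes. Of 42 tested genes of fatty acid and cuticular lipid synthesis, 7 were higher and 1 was lower in the high libraries (19.0% called, against 2.55% of all tested genes). The median log2 change was 0.21. Without pallens 1 and quinquefasciatus 5, 4 were higher and 0 lower, and the median was -0.10. The 7 were 3 of 5 tested fatty acyl-CoA reductases, which reduce activated fatty acids to the alcohols found in waxes, and 4 of 16 tested elongases, which lengthen the fatty acid chain. The 3 reductases and the elongase CPIJ001449 had few reads in the low libraries and passed the read filter through the high ones. They could thus hardly be called lower, and the 19.0% includes them.

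Fatty acyl-CoA reductase 1 (CPIJ004391, supercont3.66 positions 338951 to 349867, minus strand) differed more than any other tested gene. It had 693, 438, 1029 and 334 CPM in the high libraries against 0.89, 0.43, 0.26, 0.86 and 0.78 in the low libraries. The log2 change was 9.91 ± 0.52 (SE, derived from the test's F statistic), with an adjusted p of 2.295e-05. The lowest high library lay far above the highest low library, and the call held in all 21 alternative fits that tested the gene. It passed the read filter through the high libraries, and a filter of 10 reads in 5 libraries left it out. Its neighbour at positions 359744 to 361511 on the plus strand, fatty acyl-CoA reductase 2 (CPIJ004392), had 4.64, 24.7, 5.38 and 11.1 CPM against 0.71, 0.21, 0.78, 1.08 and 0, a log2 change of 3.77 ± 0.62 with an adjusted p of 0.0115. The mean of the high libraries was 8.22 RPKM for this gene and 390 RPKM for its neighbour. Its classes did not overlap either, and the call ended without quinquefasciatus 2, without pallens 1, or without pallens 1 and quinquefasciatus 5. Another reductase on another scaffold, CPIJ007245, had 14.3, 18.8, 4.61 and 17.4 against 1.07, 0.64, 1.55, 0.65 and 0.52 CPM (log2 change 3.88 ± 0.49, adjusted p = 0.00253), and lost its call without quinquefasciatus 2. The remaining 2 tested reductases were CPIJ010831 (log2 change 0.59, adjusted p = 0.435) and CPIJ017921 (-0.38, adjusted p = 0.675).

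Among the elongases, elongation of very long chain fatty acids protein 2 (CPIJ001449) had few reads in the low libraries and passed the read filter through the high ones. Its CPM were 6.75, 5.68, 5.64 and 9.83 against 0, 0, 0.26, 0.43 and 0. The 5 low libraries held 3 reads in all and the 4 high libraries 119, a ratio of 52.2 with an exact 95% interval of 17.4 to 257 that covers counting error only (adjusted p = 0.00124). The elongase CPIJ016352 had 15.4, 13.1, 29.2 and 12.9 against 3.03, 2.98, 1.55, 3.02 and 1.83 CPM, a log2 change of 2.78 ± 0.36 (adjusted p = 0.00305), again without overlap. Elongases CPIJ013663 (log2 change 2.41, adjusted p = 0.0225) and CPIJ014005 (1.20, adjusted p = 0.0482) were also higher, but the first lost its call without quinquefasciatus 2, quinquefasciatus 4 or pallens 1, and the second without any 1 library other than quinquefasciatus 3. Both also ended without pallens 1 and quinquefasciatus 5. At the start of the pathway the direction was the opposite one: acetyl-coa carboxylase (CPIJ005524), which makes the building block of fatty acid synthesis, had 115, 130, 109 and 193 CPM in the high against 267, 335, 383, 238 and 254 in the low libraries. That was a log2 change of -1.19 ± 0.26 with an adjusted p of 0.0459, and no high library reached the lowest of the low ones. The call ended without quinquefasciatus 2, 4 or 5, without pallens 1, 2 or 3, and without pallens 1 and quinquefasciatus 5 together.

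An enzyme that activates acids with coenzyme A and a small oxidoreductase also stood among the higher genes. An AMP dependent ligase (CPIJ003423, supercont3.49 positions 323200 to 327460, plus strand) had 394, 242, 567 and 290 against 5.71, 5.54, 10.4, 13.8 and 8.63 CPM. Its log2 change was 5.31 ± 0.37 with an adjusted p of 6.193e-05. A short-chain dehydrogenase (CPIJ011767, supercont3.391 positions 179657 to 182959, minus strand) had 333, 309, 629 and 173 against 8.38, 9.38, 9.32, 10.1 and 6.80 CPM, a log2 change of 5.28 ± 0.39 (adjusted p = 9.883e-05). Both genes separated the classes without overlap and were called in all 22 alternative fits. In both, as in fatty acyl-CoA reductase 1, pallens 3 was the highest library although its cuticle score was the lowest of the high class. Of 7 tested genes described as AMP dependent or 4-coumarate-CoA ligases 3 were higher (42.9%, against 1.9% of all tested genes) and 0 lower. Of 14 short-chain dehydrogenases 2 were higher (14.3%) and 0 lower, with 6 negative log2 changes. Both families were chosen after their values were seen.

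Tanning genes, whose products help to turn tyrosine into the pigments and cross-links of the cuticle, were mixed. The list was made from description words, so it also holds Enhancer of yellow 2 transcription factor and a phenoloxidase inhibitor. Of 30 tested genes 3 were higher (10.0%, against 1.9% of all tested genes) and 0 lower, with a median log2 change of 0.05. Without pallens 1 and quinquefasciatus 5 the counts were again 3 and 0. A glutamate decarboxylase (CPIJ010034), of the enzyme family whose *Drosophila* member black makes the beta-alanine used in tanning, had 67.5, 88.3, 246 and 31.3 CPM against 2.68, 1.07, 0.52, 2.80 and 3.40. The log2 change was 5.55 ± 0.74 with an adjusted p of 0.00402, and the call ended without quinquefasciatus 2. A dopamine N acetyltransferase (CPIJ015282), which makes N-acetyldopamine, a precursor of colourless sclerotin, had 99.3, 93.8, 255 and 252 against 5.17, 14.3, 16.8, 12.3 and 7.32 CPM (log2 change 3.66 ± 0.41, adjusted p = 0.00133). Protein yellow (CPIJ013534), a member of the family named for the *Drosophila* pigmentation gene, had 82.7, 96.4, 92.8 and 105 against 19.3, 29.2, 22.8, 28.7 and 29.8 CPM, the most even values of the 3 within each class (log2 change 1.83 ± 0.20, adjusted p = 0.00124). In all 3 genes every high library exceeded every low library, and neither of the last 2 lost its call when 1 library was left out.

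The high libraries differed among themselves in other tanning genes and in a chitin synthase, none of which passed the test; these 4 genes were chosen after their values were seen. Laccase-like multicopper oxidase 1 (CPIJ016802), of the family that oxidises catechols in the last step of tanning, had 90.5 CPM in pallens 2 and 61.8 in pallens 5, but 17.3 in quinquefasciatus 2 and 6.15 in pallens 3. Low libraries ranged from 0.78 to 43.2 (adjusted p = 0.478). The aromatic-L-amino-acid decarboxylase CPIJ013307, the enzyme class that makes dopamine, had 130 and 134 CPM in pallens 2 and 5 and 39.4 and 35.6 in quinquefasciatus 2 and pallens 3, against 22.2 to 27.97 in the low libraries (adjusted p = 0.107). Yellow-e (CPIJ005788) had 502 and 307 CPM in pallens 2 and 5, 110 in quinquefasciatus 2 and 58.7 in pallens 3, against 6.54 to 47.6 (log2 change 3.47, adjusted p = 0.0695). Chitin synthase (CPIJ016255), which polymerises chitin, had 205 and 159 CPM in pallens 2 and 5 and 53.2 and 70.7 in quinquefasciatus 2 and pallens 3, within or above the low range of 29.3 to 74.7 (adjusted p = 0.199). Pallens 2 and pallens 5, the 2 libraries with the highest score, were thus high in all 4 genes, and quinquefasciatus 2 and pallens 3 were within or nearer the low range.

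A pair of enzymes of tyrosine metabolism, chosen after their values were seen, differed in opposite directions. GTP cyclohydrolase i (CPIJ014857), which starts the synthesis of the cofactor of tyrosine hydroxylase, had 54.6, 45.5, 86.9 and 53.7 against 23.7, 23.9, 29.5, 14.9 and 23.0 CPM (log2 change 1.38 ± 0.27, adjusted p = 0.0283). The enzyme 4-hydroxyphenylpyruvate dioxygenase (CPIJ004417), which degrades tyrosine, had 61.4, 24.5, 39.97 and 22.4 against 83.3, 187, 160, 157 and 104 CPM (log2 change -1.87 ± 0.37, adjusted p = 0.0283). Neither gene's classes overlapped. The first call ended without quinquefasciatus 2, 4 or 5 or pallens 1, 4 or 5, the second without quinquefasciatus 4 or any 1 pallens library of the comparison. Both also ended without pallens 1 and quinquefasciatus 5 together.

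Of 30 tested genes of chitin metabolism 1 was higher (3.33%, against 1.9% of all tested genes) and 0 were lower. The median log2 change was -0.08, and without pallens 1 and quinquefasciatus 5 the counts were again 1 and 0. The 1 gene, described as brain chitinase and chia (CPIJ003944), belongs to the enzymes that cut chitin and had 9.28, 2.84, 5.89 and 2.27 against 0.36, 0.21, 0.52, 0.65 and 0.52 CPM (log2 change 3.65 ± 0.51, adjusted p = 0.00457). All its high libraries lay above the low ones at these low levels, and the call ended without quinquefasciatus 2. A second gene of that description, CPIJ013084, had 4.85, 9.40, 5.89 and 8.32 against 3.21, 1.92, 1.04, 3.02 and 1.57 CPM and did not pass (log2 change 1.58 ± 0.39, adjusted p = 0.0674).

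Eip93F (CPIJ012997, supercont3.449 positions 212448 to 215611, minus strand), a gene outside the list of moulting hormone genes, was higher. Its *Drosophila* namesake E93 is a transcription factor induced by ecdysone that directs metamorphosis. The gene, singled out after its values were seen, had 30.4, 50.7, 41.8 and 41.8 CPM in the high libraries against 7.31, 3.84, 2.33, 2.37 and 2.35 in the low ones. The log2 change was 3.57 ± 0.40 with an adjusted p of 0.00127, the classes did not overlap, and no removal of 1 library ended the call. Retinoid x receptor (CPIJ016024), the receptor class to which the ecdysone receptor's insect partner belongs, had 30.4, 47.0, 22.3 and 49.9 against 14.3, 13.9, 14.8, 18.5 and 14.1 CPM (log2 change 1.20 ± 0.26, adjusted p = 0.0404). Its classes did not overlap, but the call ended when any 1 library other than quinquefasciatus 3 or pallens 3 was left out, and without pallens 1 and quinquefasciatus 5.

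The list of moulting hormone genes, made from description words, holds neither Eip93F nor retinoid x receptor but includes thyroid hormone receptor-associated proteins. It had 43 tested genes. Of these, 0 were higher and 3 lower (6.98%, against 0.649% of all tested genes), with a median log2 change of -0.24. Without pallens 1 and quinquefasciatus 5 the counts were 0 and 0. The 3 lower genes are all described as juvenile hormone-inducible proteins, a name given for a response to that hormone and not for a function in its signalling. They were CPIJ010315, CPIJ007628 and CPIJ019569. CPIJ010315 had 3.80, 1.09, 3.84 and 2.52 CPM against 5.71, 30.9, 17.4, 13.6 and 17.5 (log2 change -2.48 ± 0.53, adjusted p = 0.0421), and CPIJ007628 had 19.0, 16.6, 15.9 and 22.9 against 26.6, 78.4, 71.7, 41.0 and 53.9 (log2 change -1.56 ± 0.34, adjusted p = 0.0427). Both kept every high library below every low one, with quinquefasciatus 3 the lowest of the low class. Of the 15 tested genes of that description 14 had a negative log2 change, and the call of each of the 3 ended without any 1 library other than quinquefasciatus 3, and without pallens 1 and quinquefasciatus 5. The 3 gene models described as nuclear hormone receptor ftz-f1, whose *Drosophila* namesake acts between ecdysone pulses, did not pass (adjusted p = 0.151, 0.165 and 0.189). The model with the most reads, CPIJ014945, had 37.8 and 23.4 CPM in pallens 2 and 5, 15.8 in quinquefasciatus 2 and 7.94 in pallens 3, against 0.85 to 11.2 in the low libraries. Ecdysone-induced proteins 74EF (log2 change 0.56, adjusted p = 0.516) and 75b (0.48, adjusted p = 0.529) of the list did not pass either. Nor did broad-complex core-protein (-0.49, adjusted p = 0.496), E78A (-0.05, adjusted p = 0.97) and ecdysis-triggering hormone (-0.38, adjusted p = 0.618).

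Osiris genes, an insect family that in *Drosophila* is active in cells forming cuticle, contributed 2 of 7 tested members to the higher genes (28.6%, against 1.9% of all tested genes). Osiris CPIJ008140 (supercont3.179 positions 387495 to 388401, minus strand) had 27.6, 51.2, 22.6 and 34.8 CPM against 2.50, 0.64, 0.26, 0.65 and 0.52, a log2 change of 5.16 ± 0.53 (adjusted p = 0.000909). Osiris 11 (CPIJ008136) on the same scaffold had 48.5, 94.4, 66.1 and 70.8 against 7.49, 2.13, 4.14, 0.86 and 0.26 (log2 change 4.46 ± 0.67, adjusted p = 0.00753), and lost its call without quinquefasciatus 2. Neither overlapped between classes, and quinquefasciatus 3 was the highest low library in both. The other 5 members did not pass. Osiris 9 (CPIJ008139), on the same scaffold, had 93.4, 511, 180 and 426 CPM against 672, 308, 285, 232 and 204, so that its highest value was in a low library. Osiris 18 (CPIJ009829) had 144 and 64.8 CPM in pallens 2 and 5 but 7.38 in quinquefasciatus 2 and 11.5 in pallens 3, against 0 to 39.4 in the low class.

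An oxidase, a protease precursor and a mitochondrial carrier were also among the 8 higher genes named for the size of their change. A dimethylaniline monooxygenase (CPIJ013724), of the flavin enzymes that oxidise nitrogen compounds, had 12.4, 14.2, 29.5 and 16.4 CPM against 0.26 in quinquefasciatus 5 and 0 in the other 4 low libraries. The high libraries held 304 reads and the low libraries 1 read, a ratio of 400 with an exact 95% interval of 71.3 to 15859. That interval covers counting error only, not the spread between libraries. The fitted log2 change was 7.75 ± 0.61 (adjusted p = 0.000153), and the gene passed the read filter through the high libraries. Chymotrypsinogen 2 (CPIJ006544), precursor of a digestive type of protease, had 142, 74.98, 62.0 and 73.4 against 2.32, 1.71, 3.37, 0 and 3.14 CPM (log2 change 5.67 ± 0.53, adjusted p = 0.000592), the opposite direction to most of its list. ADP,ATP carrier protein 2 (CPIJ005941), which exchanges nucleotides across the mitochondrial membrane, had 28.5, 80.5, 108 and 94.5 against 0.89, 3.41, 2.59, 2.59 and 2.09 CPM (log2 change 4.60 ± 0.40, adjusted p = 0.000316). All 3 separated the classes, and their calls held whichever library was left out.

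Both gene models described as stretchin-mlck, a muscle protein of the titin family in *Drosophila*, were higher. They are outside the muscle list and were chosen after their values were seen. CPIJ015022 had 21.3, 20.8, 29.2 and 21.7 CPM against 3.92, 1.92, 1.04, 1.51 and 2.35 (log2 change 3.57 ± 0.33, adjusted p = 0.000483). CPIJ015023, on the same scaffold, had 10.6, 21.4, 11.3 and 15.4 against 0.89, 0.21, 0.26, 0 and 0 (log2 change 5.38 ± 0.61, adjusted p = 0.00144), also without overlap. Of the 59 tested genes of the muscle list 1 was higher (1.69%, against 1.9% of all tested genes) and 0 were lower. In 37 the log2 change was negative, and the median was -0.19. The counts of called genes were the same without pallens 1 and quinquefasciatus 5. The 1 higher gene was troponin C (CPIJ012251), the calcium sensor of the thin filament. Its values were 24.5, 43.5, 37.2 and 44.6 CPM against 11.8, 10.0, 12.7, 11.9 and 9.68 (log2 change 1.56 ± 0.19, adjusted p = 0.00188). Of the 79 tested nervous system genes 3 were higher (3.8%) and 0 lower (median 0.16), and without pallens 1 and quinquefasciatus 5 the counts were 1 and 0. A nicotinic acetylcholine receptor beta-2 subunit (CPIJ016909) led them, with 11.8, 8.09, 11.3 and 5.80 CPM against 0, 0.21, 0.26, 0.43 and 0.52 (log2 change 5.06 ± 0.49, adjusted p = 0.000625).

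**Figure D3:**
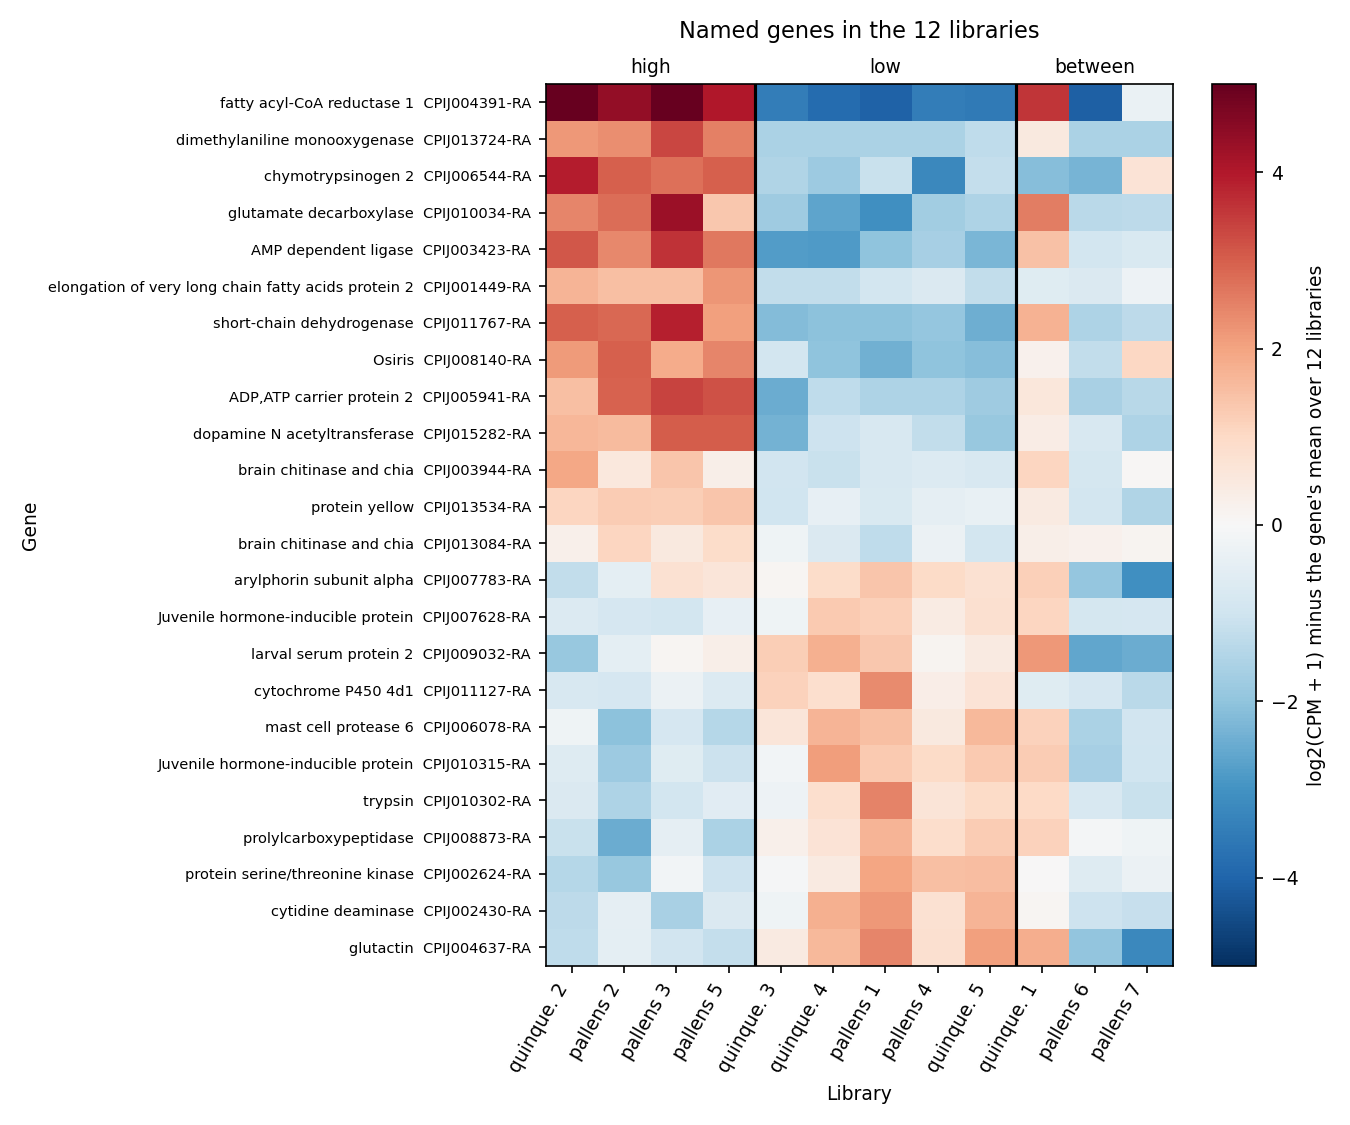
Log2(CPM + 1) of the 24 genes chosen by rule, each minus its own mean over the 12 libraries, with libraries in columns by class (high, low, between; quinque. stands for quinquefasciatus) and genes in rows by log2 change. Red blocks under the high libraries and blue under the low ones mark the higher genes, and quinquefasciatus 1 matches neither class throughout.

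Some undescribed higher genes lie beside cuticle genes. Of the 199 higher genes, 11 (5.53%) lay within 50 kb of a score gene on the same scaffold, against 2 of the 68 lower genes (2.94%) and 64 of all 10471 tested genes (0.611%). The share is a description with no test. On supercont3.46, between positions 172966 and 240533, 4 tested genes were called higher, among 5 score genes. The called genes themselves set the bounds of this stretch. The conserved hypothetical gene CPIJ002799 of that stretch had 3105, 6512, 4289 and 6208 CPM against 246, 52.2, 65.3, 61.0 and 46.3 (log2 change 5.88 ± 0.67, adjusted p = 0.00155). The hypothetical gene CPIJ002795 had 793, 1522, 835 and 1379 against 11.4, 4.26, 4.14, 7.33 and 3.92 (log2 change 7.41 ± 0.47, adjusted p = 4.619e-05). Pallens 2 and pallens 5, highest by score, were also highest in both, and quinquefasciatus 3 was the highest low library. The files name no function for these genes.

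The 9 lower genes named by rule had log2 changes of -1.56 to -2.96. Glutactin (CPIJ004637), in *Drosophila* a basement membrane glycoprotein related to esterases, had 3.59, 6.78, 4.61 and 3.78 CPM against 13.9, 33.0, 58.3, 18.3 and 44.2. Its log2 change was -2.96 ± 0.48 with an adjusted p of 0.0109. Cytidine deaminase (CPIJ002430), of pyrimidine salvage, had 1.90, 4.15, 1.28 and 3.28 against 5.17, 23.7, 31.1, 10.99 and 21.97 CPM (log2 change -2.92 ± 0.58, adjusted p = 0.0308). The cytochrome P450 4d1 gene (CPIJ011127), of an oxidase family that handles foreign compounds and fatty acids, had 17.3, 17.1, 25.4 and 18.9 against 70.1, 56.5, 165, 38.8 and 51.0 CPM (log2 change -2.11 ± 0.40, adjusted p = 0.0246). The classes of all 3 did not overlap. In the first 2 quinquefasciatus 3 was the low library nearest the high class, and in all 3 pallens 1 had the most. All 9 lower genes named by rule lost their call without quinquefasciatus 2, without pallens 1, and without pallens 1 and quinquefasciatus 5 together. Cytidine deaminase also lost it without quinquefasciatus 4 or 5 or pallens 2, 3 or 5, and P450 4d1 without quinquefasciatus 4 or pallens 2, 3 or 5.

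Digestive serine proteases had mostly negative changes. Of 53 tested trypsin and chymotrypsin genes 3 were lower and 1 higher (7.55% called, against 2.55% of all tested genes). In 45 the log2 change was negative, and the median was -0.55 against 0.02 for all genes tested. Without pallens 1 and quinquefasciatus 5 the median was -0.57 and the counts were 0 lower and 1 higher. Summed over the list the level was 4794 to 7844 CPM in the high and 8394 to 16832 CPM in the low libraries, and all 53 genes had reads in both classes. Trypsin CPIJ010302 had 3.16, 1.31, 2.56 and 3.53 CPM against 4.64, 11.3, 36.8, 9.70 and 12.03 (log2 change -2.61 ± 0.56, adjusted p = 0.0440). Mast cell protease 6 (CPIJ006078), a serine protease named after its mammalian relative, had 83.7, 22.5, 53.0 and 35.8 against 147, 315, 274, 135 and 297 (log2 change -2.11 ± 0.39, adjusted p = 0.0199). Each kept every high library below every low one. Beside the libraries given for all 9 genes, trypsin CPIJ010302 lost its call without quinquefasciatus 4 or 5 or pallens 2, 3 or 5, and mast cell protease 6 without quinquefasciatus 4 or pallens 5. Prolylcarboxypeptidase (CPIJ008873), a peptidase that removes end residues, had 3.80, 0.87, 6.66 and 2.52 against 11.6, 15.8, 33.4, 18.3 and 24.1 (log2 change -2.66 ± 0.50, adjusted p = 0.0244), and its call ended without the same libraries as that of mast cell protease 6. Among 109 other digestive enzymes 3 were lower and 1 higher (3.67% called), with a median of -0.37. Without pallens 1 and quinquefasciatus 5, 0 were lower and 1 higher. These lists mark the gut, and their part in the other results was not tested.

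Neighbouring genes of chemosensory proteins, small secreted carriers of lipophilic ligands, were among the lower genes. On supercont3.42, between positions 1053230 and 1063041, 5 genes were lower, 4 described as chemosensory protein 1 and 1 as a putative serine/threonine kinase. The called genes themselves set these bounds, and the adjacent chemosensory protein gene CPIJ002617 did not pass (log2 change -1.22, adjusted p = 0.0752). Without pallens 1 and quinquefasciatus 5, CPIJ002620 alone of the 5 genes in this stretch was called. Of 5 tested chemosensory protein genes 4 were lower (80.0%, against 0.649% of all tested genes), a family chosen after its values were seen. Chemosensory protein CPIJ002620 had 1.06, 1.97, 0.77 and 0.50 CPM against 6.24, 5.97, 6.73, 6.90 and 4.19 (log2 change -2.51 ± 0.38, adjusted p = 0.00692), and CPIJ002622 had 3.80, 7.21, 8.20 and 8.07 against 9.27, 19.0, 22.01, 23.3 and 10.5 (log2 change -1.61 ± 0.26, adjusted p = 0.009998). Both lost their call without quinquefasciatus 2. CPIJ002618 had 119, 73.9, 99.2 and 72.6 against 182, 257, 200, 224 and 153 (log2 change -1.12 ± 0.24, adjusted p = 0.0424), and CPIJ002619 changed by -1.34 ± 0.28 (adjusted p = 0.0387). CPIJ002618 lost its call without quinquefasciatus 2 or 4 or any 1 pallens library of the comparison, and CPIJ002619 without quinquefasciatus 2, 4 or 5 or pallens 1, 3 or 4. The gene described as a putative kinase, CPIJ002624, has a model of only 378 bases. It had 1.90, 1.09, 6.15 and 2.77 against 6.60, 9.59, 29.5, 21.3 and 21.97 CPM (log2 change -2.87 ± 0.52, adjusted p = 0.0201), and lost its call without quinquefasciatus 2 or pallens 1 or 5. Reads of near-identical copies among such neighbours may not have been counted, since only unique reads were. The one odorant binding gene of the other direction was Odorant-binding protein 56a (CPIJ001874), with 13.9, 12.02, 25.6 and 6.30 against 0.71, 0.21, 0.26, 0.43 and 0 CPM (log2 change 5.24 ± 0.61, adjusted p = 0.00155).

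Larval storage proteins, which the fat body makes in the last larval stage as a reserve for metamorphosis, gave no call. Of 12 tested genes 0 were higher and 0 lower, with or without pallens 1 and quinquefasciatus 5, 10 had a negative log2 change, and the median was -0.77. Arylphorin subunit alpha (CPIJ007783) had 4983, 8174, 19771 and 17839 CPM in the high and 12363, 22125, 30028, 22514 and 19671 in the low libraries (log2 change -1.17 ± 0.37, adjusted p = 0.134). Larval serum protein 2 (CPIJ009032) had 298, 793, 1218 and 1383 against 2643, 3836, 2857, 1238 and 1525 (log2 change -1.62 ± 0.57, adjusted p = 0.165). In both the lowest of the 9 compared libraries were quinquefasciatus 2 and pallens 2, and the classes overlapped. Summed over the list the level was 89173 to 170025 CPM in the high and 135033 to 161667 in the low libraries.

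The remaining lists gave few calls or none, beside 2.55% called of all tested genes. Of 62 respiratory chain genes 0 were called and 57 had a negative log2 change, with a median of -0.47. Among 26 genes of glycolysis and trehalose 24 were negative, with 0 called and a median of -0.48. Cytosolic ribosomal proteins (68 genes, median 0.03), mitochondrial ribosomal proteins (70 genes, median 0.12), heat shock genes (45, median -0.01) and immune genes (86, median -0.39) had 0 called. Also without a call were protease inhibitors (23, median -0.03), DNA replication genes and histones (55, -0.30), axoneme genes (21, 0.27), photoreceptor genes (11, 0.58) and glycine-rich structural genes (3, 0.16). Of 114 cytochrome P450 genes 2 were lower and 0 higher (1.75% called, median -0.28), and of 101 ion transport genes 1 was higher (0.99%, median -0.41). Odorant binding and chemosensory genes had 1 higher and 4 lower of 19 (26.3% called, median -0.84). Among 373 homeobox and transcription factor genes, 51 genes of the extracellular matrix and 27 of autophagy and caspases, 1 each was higher and 0 were lower. Their shares were 0.268%, 1.96% and 3.7%, and their medians 0.19, -0.08 and 0.11. Without pallens 1 and quinquefasciatus 5 the odorant binding and chemosensory list had 1 higher and 1 lower, and the other lists of this paragraph had 0 called. Over all tested genes 2035 had an unadjusted p under 0.05, and DESeq2 called 784, of which 396 were higher and 388 lower.

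**Figure D4:**
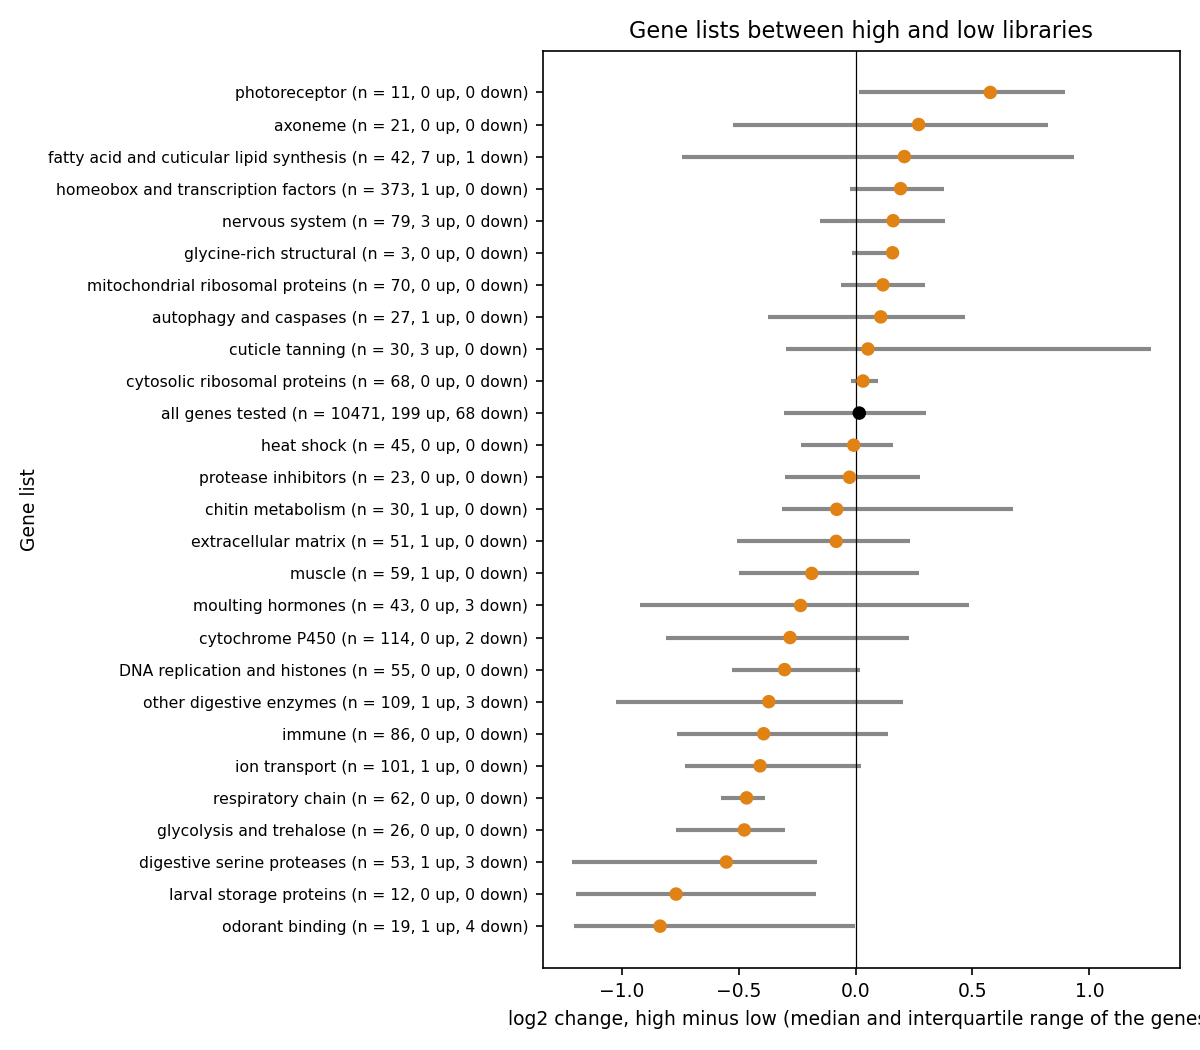
Median log2 change, high minus low, of each gene list (points; black for all genes tested) with the interquartile range of its genes (bars), and in the labels the genes tested and called up or down in the high libraries. Odorant binding, storage protein and digestive protease lists lie lowest, and the photoreceptor list highest with 0 calls.

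The 3 libraries left out of the test did not fall on a line between the classes. The mean log2(CPM + 1) of the 199 higher genes was 5.16 to 5.52 in the high and 2.49 to 2.82 in the low libraries, a separation that the calls set. In quinquefasciatus 1 it was 3.84, in pallens 6 3.33 and in pallens 7 3.38, all between the classes. For the 68 lower genes the mean was 3.71 to 4.13 in the high and 5.02 to 5.91 in the low libraries. Quinquefasciatus 1, with 5.30, lay within the low range, and pallens 6 (4.001) and pallens 7 (3.99) lay within the high range. Pallens 6 was nearer the high mean at 56 of the 68 lower genes and pallens 7 at 57, but quinquefasciatus 1 at 10. At the higher genes the order was reversed, with quinquefasciatus 1 nearer the high mean at 68 of 199, pallens 6 at 57 and pallens 7 at 45. The 3 pools had nearly the same cuticle score and differ in subspecies, so that a difference between subspecies and a difference between pools cannot be told apart here.

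Some of the genes named by rule showed the same split, and others did not. Fatty acyl-CoA reductase 1 (CPIJ004391) had 246 CPM in quinquefasciatus 1, 0.22 in pallens 6 and 15.6 in pallens 7. Glutamate decarboxylase (CPIJ010034) had 74.8 CPM in quinquefasciatus 1, within the high range, and 4.01 and 4.15 in pallens 6 and 7. Glutactin (CPIJ004637) had 38.2 CPM in quinquefasciatus 1, within the low range, and 1.78 and 0.20 in pallens 6 and 7, below every high library. Arylphorin subunit alpha (CPIJ007783) had 26366 CPM in quinquefasciatus 1 but 3039 and 1376 in pallens 6 and 7, below all 9 compared libraries. By contrast, Osiris CPIJ008140 had 6.68, 1.78 and 12.65 CPM in quinquefasciatus 1, pallens 6 and pallens 7. Chymotrypsinogen 2 (CPIJ006544) had 1.15, 0.89 and 14.2 CPM in the same order. Cytochrome P450 4d1 (CPIJ011127) had 19.9, 16.9 and 11.5 CPM, with quinquefasciatus 1 within the high range. Pallens 6 and 7 were the most alike pair of the series, although their counts differed by more than sampling noise (chi-square per degree of freedom 15.0).

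**Figure D5:**
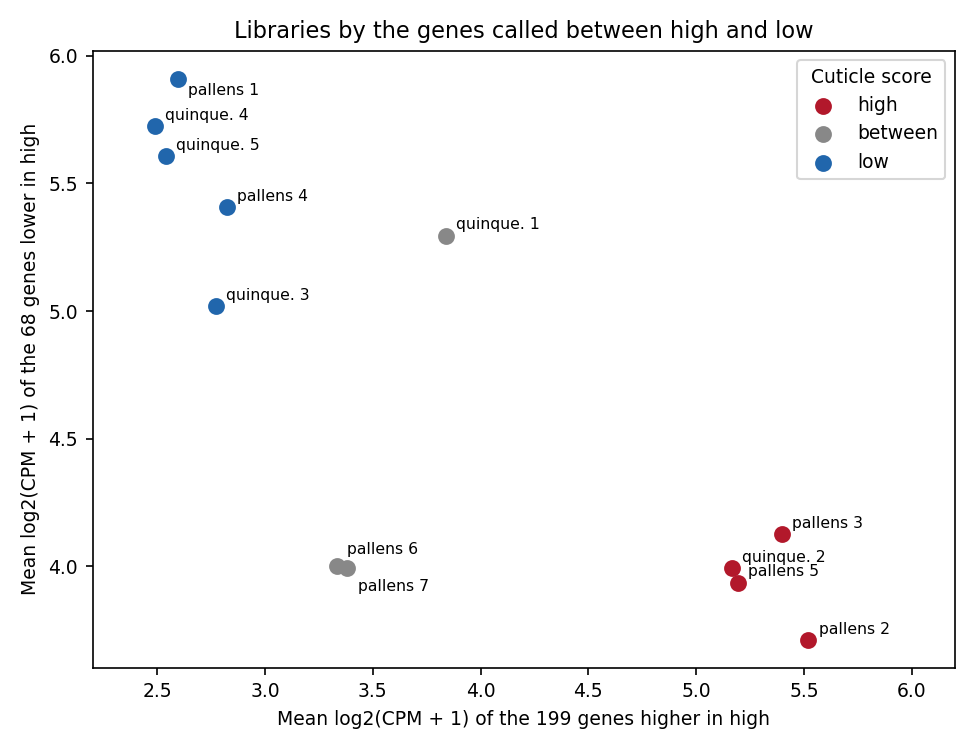
Mean log2(CPM + 1) of the 199 genes called higher (horizontal axis) against the mean of the 68 genes called lower (vertical axis) in each of the 12 libraries, coloured by class of the cuticle score. High and low libraries occupy opposite corners by construction; quinquefasciatus 1 sits at 3.84 and 5.30, and pallens 6 and 7 sit near 3.4 and 4.0.

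The change between high and low libraries was also compared between the subspecies. The test of a difference in the change called 0 of 10471 genes in edgeR; 621 had an unadjusted p under 0.05 and the smallest adjusted p was 0.817. Quinquefasciatus has 1 high library, whose spread was taken from the other 8. In pallens only, 3 high against 2 low libraries, 196 genes were called. The 2 low libraries were pallens 1 and pallens 4, which lay nearer their own subspecies at only 55.2% and 59.6% of the genes compared. Both comparisons took the subspecies labels as given.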

How the data were processed

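RNA from pools of 30 whole larvae was sequenced as 12 libraries without strand information, per the labels' protocols. The authors deposited 1 table per library with unique read counts per gene model and RPKM values, which per the file headers scale reads by model length and library total. Genes missing from a table were set to 0. Which aligner, counter and build were used is not given in the sources used here. Identifiers, descriptions and scaffold positions are those of the files, and 0 identifiers matched the RefSeq table, so no sequences are shown.

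The score used CPM by library totals, whereas CPM in the text are TMM-normalized over all 12 libraries. Counts of the 9 high and low libraries were tested in edgeR 4.0.16 (R 4.3.3) with TMM, filterByExpr, robust quasi-likelihood dispersion and terms for subspecies and class. Score genes were removed before the Benjamini-Hochberg adjustment over 10471 genes. Of the genes with the score's words but too few reads to enter it, 3 were tested and 0 called. The biological coefficient of variation was 32.7%. Each SE was the absolute log2 change divided by the square root of the test's F statistic. Fitted changes of genes near 0 depend on the prior count, and their SE are the least reliable. Several named higher genes had few reads in the low libraries and passed filterByExpr through the high ones. Their low level in the low class is thus no result apart from the call, and the shares called in their lists and families include them. A filter of 10 reads in 5 libraries left out CPIJ004391, CPIJ004392, CPIJ007245, CPIJ001449, CPIJ013724, CPIJ003944, CPIJ001874, CPIJ015023 and CPIJ016909. A floor of 3 reads, allowed by a count of 0, was 0.579 to 0.772 CPM. No paired fit was made.

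Genes were named by rule as the 8 called genes with the largest change in each direction (described, not overlapping another model, mean log2 CPM at least 3, same sign in both subspecies), and as the 2 smallest p in each of 6 lists. Others are named because of their values. The members, the 26 lists of description words and the families were chosen with earlier results of these data known, and 4 lists were corrected after values were seen. Alternatives were other normalizations, filters, DESeq2 1.42.0, limma-voom (limma 3.58.1), other covariates, other sets of libraries, stricter thresholds and each library left out.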

Additional observations from a re-analysis of the deposited data

Results flagged for a closer look

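Of 100 groups of 4 or 5 libraries examined for a library far from the rest of its class, 8 had one, where chance gives about 1 in 20. Values are log2(CPM + 1), averaged over the genes where a list is named. Dimethylaniline monooxygenase had 0.34 in quinquefasciatus 5, the only low library with a read, and Osiris CPIJ008140 had 1.81 in quinquefasciatus 3 against 0.72 in the next low library. Over whole lists, quinquefasciatus 2 stood below the other high libraries in protease inhibitors (4.12 against 4.37 in the nearest), and pallens 3 above them in the odorant binding list (4.55 against 3.98). Among low libraries, quinquefasciatus 5 was apart in the immune list (3.88 against 3.75) and the odorant binding list (4.32 against 4.59). Pallens 1 was apart in the nervous system list (3.58 against 3.504) and in autophagy and caspases (4.75 against 4.46). Pallens 1 and quinquefasciatus 5 had the lowest shares of genes nearer their own subspecies, at genes chosen without both.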

How the results depend on the processing

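The count of 267 genes called between high and low libraries (199 higher, 68 lower) ranged from 78 to 689 when 1 library was left out. It was 101 at an adjusted p under 0.01 (97 higher, 4 lower), 784 in DESeq2 (396 higher, 388 lower, all 267 among them), 416 without the subspecies term (288 and 128), 91 without pallens 1 and quinquefasciatus 5 (84 and 7), and 521 with the score as a continuous term over 12 libraries (332 and 189). In quinquefasciatus only, a fit chosen after seeing the data, it was 15 (15 and 0), with 1 high library whose spread was assumed to be that of the 3 low ones. The cause of these moves was not tested. Under the other settings it was 189 to 313. By library totals alone 214 were higher and 59 lower; with every gene that had a read, 200 and 113; in pallens only, 116 and 80; and with 12 libraries in 3 classes, 200 and 33. The test of a difference between the subspecies called 0 genes in all 11 alternatives. No called named gene changed direction in an alternative fit, but list medians near 0 changed sign, among them lipid synthesis (-0.21 to 0.39) and tanning (-0.09 to 0.29). By TMM-normalized CPM, pallens 6 (3.97) fell below the limit of 4; by the median over the score genes, 3 libraries were above 5 and 8 below 4; over all matching genes without a read minimum, 0 were above 5 and 12 below 4, and the low class (highest 2.44) overlapped the libraries between (lowest 2.26). No paired analysis was possible because the labels carry no replicate numbers that pair libraries. Depth limits genes near 3 reads per library.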
